A study of Mus musculus with 5 samples.

Results

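Genes that mark the macrophages of the brain's borders were compared between GL261-bearing mice treated with ultrasound-mediated blood-brain barrier opening (UMBO) and vehicle-treated mice. The set held 8 genes out of 55573 in the count tables, of which 40435 had a count: Mrc1, Cd163, Lyve1, Stab1, F13a1, Cbr2, Folr2 and Pf4. They were chosen by name as genes of border and perivascular macrophages, with earlier results of these data known. They were matched by mouse symbol to the Ensembl identifiers of the tables. All 8 were detected in every library and entered the test.

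RNA was sequenced in bulk from the right hemisphere of 5 mice, 3 of them vehicle-treated and 2 treated with UMBO. All 5 were C57BL/6 females that had received GL261 cells, a mouse glioma line transduced with luciferase and mKate2, in the right caudate nucleus-putamen at the age of 7 to 8 weeks. Sessions were given on days 21 and 24, and tissue was taken 24 h after the second. The UMBO mice received low-intensity pulsed ultrasound after an intravenous injection of SonoVue microbubbles, under isoflurane, and the vehicle mice received inVivoPure pH 6.5 Dilution Buffer. Whether vehicle mice were given microbubbles in these sessions is not given in the sources used here. The tissue was a whole tumor-bearing hemisphere, so tumor, brain, meningeal, vascular and immune cells all contributed RNA. No step that separates macrophages from other cells, or removes blood from the vessels, is described for these samples.

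The total count lay between 59736771 and 86164159 per library, and TMM normalization factors lay between 0.912 and 1.10. The libraries were brain by their neuronal RNA, with Snap25, a synaptic vesicle fusion protein, at 824 to 3214 CPM, the counts scaled to equal library size. UMBO replicate 2 had the lowest Snap25 level and stood apart from the other libraries. Its chi-square per gene against each of the other 4 libraries was between 270.4 and 650.5, while all other pairs lay between 52.2 and 116.0. The fold changes of the 8 genes, their counts and their medians were therefore also computed without it by edgeR.

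Border macrophages live outside the parenchyma, along vessels in the perivascular space, in the meninges and in the choroid plexus. They are long-lived, depend on signaling through the CSF1 receptor, and clear debris, plasma proteins and hemoglobin that reach these spaces. They are told from microglia by scavenger and endocytic receptors such as CD206 and CD163 and, for the subset along vessels and in the leptomeninges, by LYVE1 and the folate receptor beta. None of the 8 genes is confined to these cells: tumor-associated macrophages also express several of them, lymphatic endothelium expresses Lyve1, and platelets and their precursors express Pf4.

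The stretches of DNA before 3 of the genes are shown because these genes mark the ends of the result: Stab1 and Folr2, whose UMBO libraries lay farthest above the vehicle libraries, and Cd163, whose group means were nearly equal. Each is the 250 bases before the RefSeq start on the gene's own strand, 5′ to 3′, in build GRCm38.p6. Capitals mark 2 motifs, each searched on both strands. AGGAAG is the core of the box bound by the macrophage factor PU.1. TGCTGA is the half-site of the MAF family of factors. No match of either motif overlapped a match of the other. The window of Stab1 lies at chr14:31168642-31168891 on the minus strand.
Stab1: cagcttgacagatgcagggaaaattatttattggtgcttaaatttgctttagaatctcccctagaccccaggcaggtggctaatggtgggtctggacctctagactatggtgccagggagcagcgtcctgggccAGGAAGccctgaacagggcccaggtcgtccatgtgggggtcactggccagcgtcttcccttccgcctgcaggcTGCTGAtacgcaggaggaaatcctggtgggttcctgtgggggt
The window of Folr2 lies at chr7:101857191-101857440 on the minus strand, and its last 4 bases belong to an annotated exon.
Folr2: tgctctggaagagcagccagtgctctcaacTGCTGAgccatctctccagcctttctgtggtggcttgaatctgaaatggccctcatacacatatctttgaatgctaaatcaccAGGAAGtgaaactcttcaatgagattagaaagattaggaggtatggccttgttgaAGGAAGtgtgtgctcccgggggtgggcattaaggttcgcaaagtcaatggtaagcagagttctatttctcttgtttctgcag
The window of Cd163 lies at chr6:124304401-124304650 on the plus strand.
Cd163: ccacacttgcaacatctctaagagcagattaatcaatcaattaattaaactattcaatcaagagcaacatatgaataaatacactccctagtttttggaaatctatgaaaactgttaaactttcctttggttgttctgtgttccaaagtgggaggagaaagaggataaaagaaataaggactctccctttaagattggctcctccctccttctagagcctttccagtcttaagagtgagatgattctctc
A window was found for 7 of the 8 genes, all but Lyve1. The PU.1 core was present in 6 of the 7, in all but Cd163, against 29.5% of the 32851 windows of the same length in the RefSeq table. The MAF half-site was present in 2, Stab1 and Folr2, against 16.1% of all windows. These matches describe the letters of the windows only.

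All 8 genes had a higher mean in the UMBO group than in the vehicle group, and none passed the adjusted test. The UMBO mean was between 1.02 times (Cd163) and 2.58 times (Pf4) the vehicle mean. On the log2 scale the difference had a median of 0.96 over the 8 genes and of 0.01 over all 23592 genes tested. By edgeR's quasi-likelihood test 0 of the 8 had an adjusted p under 0.05, as had 0.0% of all genes. The DESeq2 Wald test also gave 0 of 8 at an adjusted p under 0.05, where 0.0989% of all genes were called, and 5 of 8 higher at an unadjusted p under 0.05, where 4.87% of all genes were. At an unadjusted p under 0.05 by edgeR, Stab1, Cbr2 and Folr2 were higher with UMBO. These are 3 of 8 genes or 37.5%, where 5.3% of all genes were higher at that threshold, and 0 of 8 were lower, where 2.06% of all genes were. In 5 of 8 genes, or 62.5%, the lower UMBO library exceeded the highest vehicle library, as it did in 11.5% of all genes: Lyve1, Stab1, F13a1, Cbr2 and Folr2. Both lay below every vehicle library for 0 of 8 genes, where this held for 11.4% of all genes. Because the 8 genes were chosen with earlier results of these data known, these shares only describe the set. In bulk tissue, more cells of a kind and more RNA per cell cannot be told apart. The p-values measure the spread between these 5 mice.

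**Figure D1:**
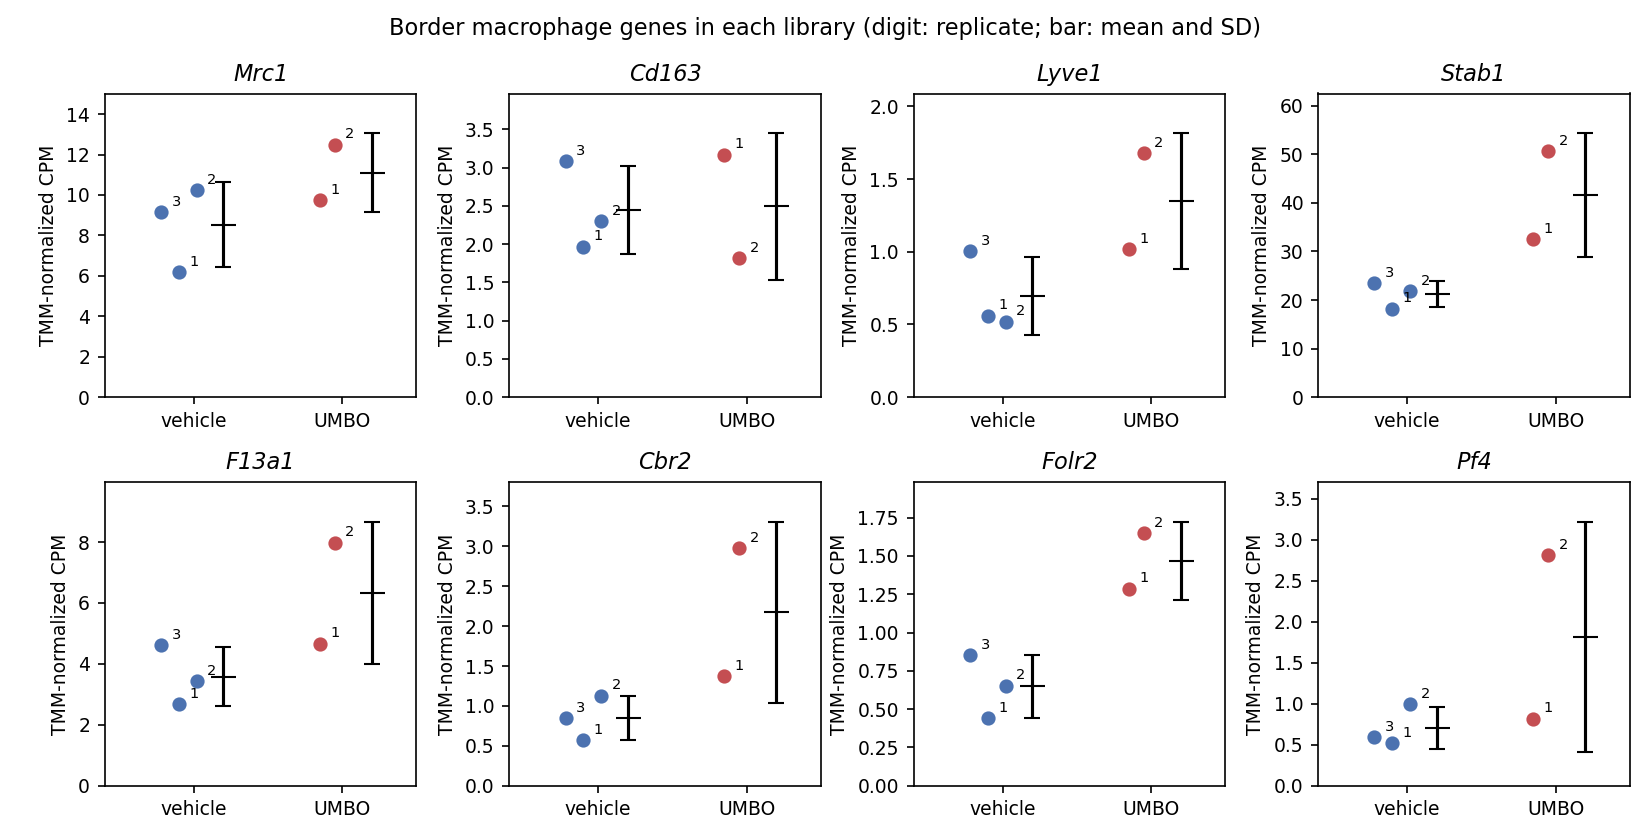
Level of each of the 8 genes in TMM-normalized CPM (y axis, linear, from 0) in the 3 vehicle libraries (blue) and the 2 UMBO libraries (red), with the replicate number beside each point and a bar for the mean and SD of each group. The UMBO points lie above all vehicle points for Lyve1, Stab1, F13a1, Cbr2 and Folr2, by as little as 1.33% for F13a1, and UMBO replicate 2 is the highest library for 7 genes and the lowest for Cd163.

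Among the scavenger receptors, Stab1 was higher in both UMBO mice, Mrc1 overlapped between the groups, and Cd163 was nearly equal in the group means. Mrc1 (chr2:14229392-14332057, plus strand) encodes the mannose receptor CD206, which takes up glycoproteins and microbial sugars. Its level was 6.18, 10.3 and 9.15 CPM in vehicle replicates 1 to 3, and 9.73 and 12.5 CPM in UMBO replicates 1 and 2. UMBO replicate 1 thus lay between the vehicle libraries and only UMBO replicate 2 lay above them. The vehicle mean was 8.53 ± 2.11 CPM (SD, n = 3) and the UMBO mean 11.1 ± 1.95 CPM (SD, n = 2). The log2 fold change was 0.38 (SE 0.29, 95% interval -0.33 to 1.09), with an adjusted p of 0.525 by edgeR. The microRNA gene Mir511, which lies within an intron of Mrc1, had 0 counts in every library.

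Cd163 (chr6:124304656-124330527, plus strand) encodes the receptor that clears complexes of hemoglobin and haptoglobin. It was read at 1.97, 2.30 and 3.08 CPM in the vehicle mice and at 3.17 and 1.82 CPM in the UMBO mice. The UMBO libraries were the highest and the lowest of the 5, on either side of the vehicle range. The means were 2.45 ± 0.573 CPM (SD, n = 3) with vehicle and 2.49 ± 0.957 CPM (SD, n = 2) with UMBO. With a log2 fold change of 0.03 (SE 0.38), the 95% interval of -0.90 to 0.96 left room for a difference of either sign, and the adjusted p was 0.973 by edgeR. The sign of the fold change turned with the libraries used: it was -0.11 without vehicle replicate 1 and -0.46 without UMBO replicate 1.

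Stab1 (chr14:31139013-31168641, minus strand) encodes stabilin-1, an endocytic receptor for modified lipoproteins and extracellular matrix fragments. It was the most abundant of the 8 genes, with 18.2, 21.8 and 23.5 CPM in the vehicle mice and 32.5 and 50.6 CPM in the UMBO mice. The lower UMBO library was 38.4% above the highest vehicle library. On 1363 to 3316 counts per library, counting error was small: the exact 95% interval before TMM scaling was 22.1 to 24.1 CPM in vehicle replicate 3 and 31.4 to 33.9 CPM in UMBO replicate 1. The mean was 21.2 ± 2.7 CPM (SD, n = 3) with vehicle and 41.6 ± 12.8 CPM (SD, n = 2) with UMBO. The fitted log2 fold change was 0.97 (SE 0.24, 95% interval 0.38 to 1.56), with an unadjusted p of 0.00691 and an adjusted p of 0.497 by edgeR. Nt5dc2 on the opposite strand shares 112 exonic bases with Stab1, or 1.09% of the exonic bases of Stab1, and was read at 4.37 to 6.78 CPM with vehicle and at 7.81 and 23.8 CPM with UMBO. Strand-specific counting is not stated in the sources used here, so reads from the shared bases cannot be assigned to one of these genes with certainty.

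The surface receptors for a matrix sugar and a vitamin, Lyve1 and Folr2, were both higher in each UMBO library than in every vehicle library, on low counts. Lyve1 (chr7:110850607-110863239, minus strand) encodes a hyaluronan receptor. Its level was 0.562, 0.519 and 1.00 CPM with vehicle and 1.02 and 1.68 CPM with UMBO. The separation was narrow, since vehicle replicate 3 had 85 counts and UMBO replicate 1 had 87, and the exact 95% intervals of these libraries, 0.788 to 1.22 and 0.818 to 1.26 CPM before TMM scaling, overlapped almost wholly. The means were 0.695 ± 0.268 CPM (SD, n = 3) and 1.35 ± 0.468 CPM (SD, n = 2). The log2 fold change was 0.95 (SE 0.45, 95% interval -0.14 to 2.04), with an adjusted p of 0.497 by edgeR.

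Folr2 (chr7:101839988-101857194, minus strand) encodes the folate receptor beta, which takes up folates by endocytosis. It was read at 0.441, 0.653 and 0.850 CPM in the vehicle mice and at 1.29 and 1.65 CPM in the UMBO mice. The lower UMBO library exceeded the highest vehicle library by 51.3%, the widest gap among the 8 genes. The exact 95% intervals of those 2 libraries, 0.654 to 1.05 CPM in vehicle replicate 3 and 1.06 to 1.56 CPM in UMBO replicate 1 before TMM scaling, did not overlap. The vehicle mean was 0.648 ± 0.205 CPM (SD, n = 3) and the UMBO mean 1.47 ± 0.256 CPM (SD, n = 2). Folr2 had a log2 fold change of 1.17 (SE 0.39, 95% interval 0.22 to 2.13), an unadjusted p of 0.0240 and an adjusted p of 0.497 by edgeR. The value for Folr2 carries a limit of annotation, since the antisense gene Gm10602 shares 975 exonic bases with it, or 63.07% of its own. Gm10602 was read at 1.70, 1.05 and 1.12 CPM with vehicle and 1.53 and 2.34 CPM with UMBO, with overlap between the groups. Without stated strand, reads of Folr2 and Gm10602 cannot be told apart over the shared bases.

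The secreted proteins and the enzyme of the set, F13a1, Pf4 and Cbr2, had their highest level in UMBO replicate 2, with UMBO replicate 1 close to the vehicle range for F13a1 and Pf4. F13a1 (chr13:36867178-37050244, minus strand) encodes the catalytic A chain of coagulation factor XIII, which crosslinks fibrin. Its level was 2.67, 3.44 and 4.61 CPM in the vehicle mice and 4.67 and 7.99 CPM in the UMBO mice. UMBO replicate 1 was 1.33% above vehicle replicate 3, well within the counting interval of either library. The means were 3.57 ± 0.973 CPM (SD, n = 3) and 6.33 ± 2.35 CPM (SD, n = 2), the log2 fold change was 0.82 (SE 0.37, 95% interval -0.08 to 1.72), and the adjusted p was 0.497 by edgeR. The antisense gene Gm30489, with 2 to 13 counts per library, shares 74 exonic bases with F13a1.

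Cbr2 (chr11:120729489-120732114, minus strand) encodes a carbonyl reductase. It was read at 0.575, 1.13 and 0.850 CPM with vehicle and at 1.37 and 2.98 CPM with UMBO. Both UMBO libraries were above the vehicle range, the lower by 21.4% and the higher at 3.50 times the vehicle mean. The vehicle mean was 0.851 ± 0.276 CPM (SD, n = 3) and the UMBO mean 2.17 ± 1.14 CPM (SD, n = 2). Its log2 fold change of 1.35 (SE 0.47, 95% interval 0.19 to 2.51) had an unadjusted p of 0.0294 and an adjusted p of 0.497 by edgeR.

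Pf4 (chr5:90772435-90773383, plus strand) encodes platelet factor 4, a chemokine of platelet granules that border macrophages also express. It had 0.522, 0.994 and 0.591 CPM in the vehicle mice and 0.819 and 2.81 CPM in the UMBO mice. UMBO replicate 1 lay below vehicle replicate 2, so the groups overlapped, and UMBO replicate 2 was at 4.0 times the vehicle mean. The means were 0.702 ± 0.255 CPM (SD, n = 3) and 1.81 ± 1.41 CPM (SD, n = 2). The log2 fold change of 1.37 was the largest of the 8 and also the least certain (SE 0.60, 95% interval -0.09 to 2.83), with an adjusted p of 0.497 by edgeR.

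UMBO replicate 2 carried the larger part of these differences for most of the set. UMBO replicate 1 was at 1.14 times (Mrc1) to 1.98 times (Folr2) the vehicle mean, and UMBO replicate 2 at 0.742 times (Cd163) to 4.0 times (Pf4). UMBO replicate 2 was the highest of the 5 libraries for 7 genes and the lowest for Cd163, and vehicle replicate 1 was the lowest for 6. Without UMBO replicate 2 the 8 genes had a median of 0.46 on the log2 scale, and 1 of 8 genes, Stab1, had an unadjusted p under 0.05 by edgeR (log2 fold change 0.62, p of 0.0234), where 1.15% of all genes were then higher at that threshold. Folr2 then had the highest log2 fold change of the 8, 0.99, and Mrc1 and Pf4 the lowest, 0.19 and 0.23. Without vehicle replicate 1 only Stab1 again had an unadjusted p under 0.05 (log2 fold change 0.88, p of 0.0319), where 0.838% of all genes were higher at that threshold. Without UMBO replicate 1, 6 of 8 genes had an unadjusted p under 0.05 and 3 an adjusted p under 0.05, namely Stab1, Cbr2 and Pf4, but UMBO replicate 2 was then the only UMBO library, 21.4% of all genes were higher at an unadjusted p under 0.05, and 4543 of all genes were called at an adjusted p under 0.05.

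**Figure D2:**
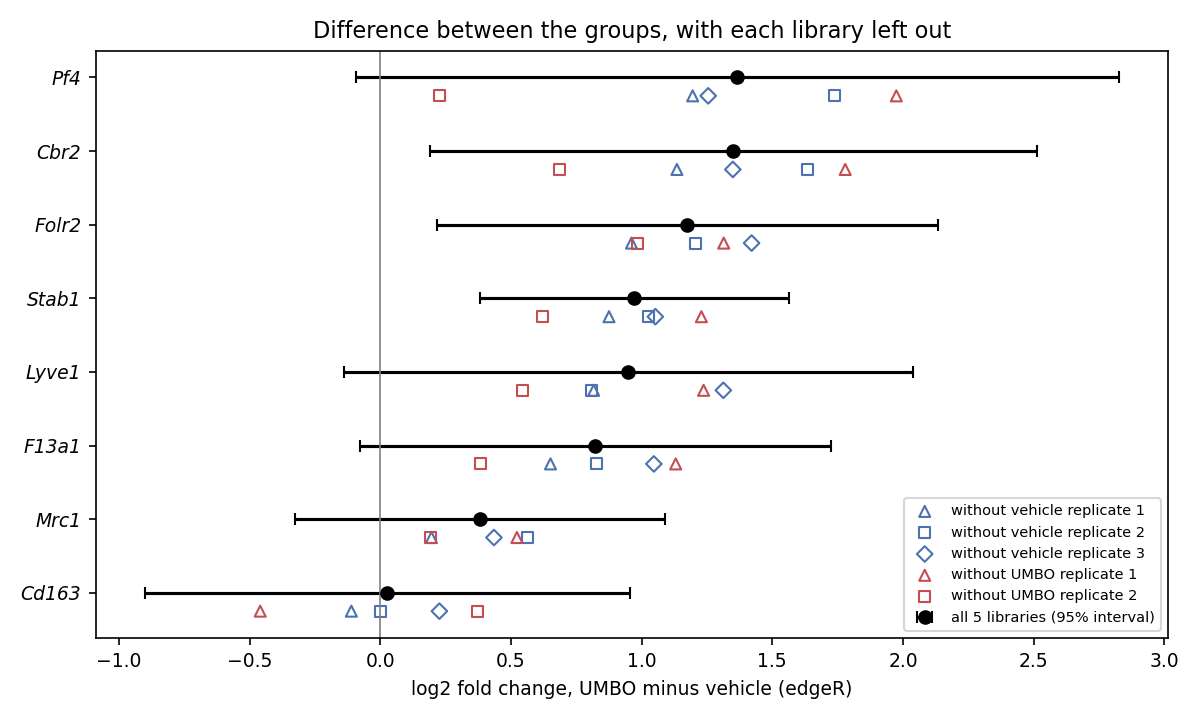
Log2 fold change, UMBO minus vehicle (x axis), of each of the 8 genes by edgeR, with the 95% interval over all 5 libraries (black) and the value after leaving out each library in turn (open symbols; blue for vehicle, red for UMBO). The intervals of Stab1, Cbr2 and Folr2 lie above 0, and leaving out UMBO replicate 2 gives the lowest value for Mrc1, Lyve1, Stab1, F13a1, Cbr2 and Pf4.

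Set beside each other per kb of exon, the 8 genes spanned a wide range of levels. In the vehicle group Stab1 was highest at 2.06 ± 0.262 CPM per kb (SD, n = 3), followed by Mrc1 at 1.34 ± 0.331 and Pf4 at 0.974 ± 0.354. Cbr2 at 0.641 ± 0.208, F13a1 at 0.530 ± 0.144, Cd163 at 0.449 ± 0.105 and Folr2 at 0.419 ± 0.132 lay close together, and Lyve1 was lowest at 0.238 ± 0.0920. Only Stab1 was separated from its next neighbor by the vehicle ranges, and the other neighbors in this order overlapped. In the UMBO group the means ran from 4.04 CPM per kb for Stab1 to 0.457 for Cd163 and 0.462 for Lyve1. Cd163 was above Folr2 in 2 of 5 libraries, vehicle replicates 1 and 3, and below it in both UMBO libraries.

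Within the set, Stab1 stood higher relative to both other scavenger receptors in the UMBO mice. The ratio of Mrc1 to Stab1 was 0.339, 0.470 and 0.389 with vehicle and 0.299 and 0.247 with UMBO, and that of Cd163 to Stab1 was 0.108, 0.105 and 0.131 with vehicle and 0.0975 and 0.0359 with UMBO. For both ratios the UMBO libraries lay below every vehicle library, while the other 4 ratios computed (Cd163 to Mrc1, Lyve1 to Mrc1, Folr2 to Stab1 and Pf4 to F13a1) overlapped between the groups. For Cd163 to Stab1 the gap was narrow, 0.105 in vehicle replicate 2 against 0.0975 in UMBO replicate 1, on 155 and 271 counts of Cd163. Both ratios restate the levels given above, where Stab1 exceeded its vehicle range in both UMBO libraries and Mrc1 and Cd163 did not. No test was run on the ratios, which share counts, and how often other gene pairs show such a gap was not computed.

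Other genes known from border macrophages showed a smaller median difference than the 8. All 18 genes of that list were tested. The list was written with earlier results of these data known. In it, 16 genes were higher and 2 lower with UMBO in the fitted value, and the median over the list was 0.61 on the log2 scale. By edgeR, 0 had an adjusted p under 0.05. At an unadjusted p under 0.05, 1 of 18 was higher, where 5.3% of all genes were: Clec4n, which encodes the C-type lectin Dectin-2. It was read at 0.281, 0.860 and 0.272 CPM with vehicle and at 0.620 and 4.40 CPM with UMBO, so the groups overlapped, and its log2 fold change of 2.41 (SE 0.91, adjusted p of 0.497 by edgeR) was also the most positive in the list. Ms4a7, a membrane protein of macrophages other than microglia, had the next smallest p, with 0.535, 2.60 and 1.23 CPM against 1.90 and 11.1 CPM. Fcna, the lectin ficolin A, followed with 0.254, 0.178 and 0.177 CPM against 0.456 and 0.290 CPM. It was 1 of 3 genes among the 18 with both UMBO libraries above every vehicle library, besides Siglec1 and Dab2. This held for 11.5% of all genes. The most negative value was -0.53 (SE 0.44) for Cd209b, a C-type lectin, which was read at 0.148 to 0.201 CPM with vehicle and at 0.129 and 0.107 CPM with UMBO. It was the 1 gene of the 18 with both UMBO libraries below every vehicle library, where this held for 11.4% of all genes. Without UMBO replicate 2 the median of the list was 0.23.

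The partners of the 8 genes were examined in 4 lists. For these and the lists that follow, 5.3% of all genes were higher and 2.06% lower at an unadjusted p under 0.05 by edgeR. In the CSF1 receptor axis, on which border macrophages depend, 4 of 5 genes were higher at an unadjusted p under 0.05 and 0 at an adjusted p, by edgeR. Csf1r itself was at 99.1, 140.7 and 126.6 CPM with vehicle and at 190.4 and 173.2 CPM with UMBO, above the vehicle range in both mice. Of 8 genes of hemoglobin and heme handling, the pathway of Cd163, 6 were higher and 2 lower, 2 of them at an unadjusted p under 0.05, and the median over the list was 0.92 on the log2 scale. That median was -0.08 without UMBO replicate 2. Fth1, the ferritin heavy chain, was the most abundant of them at 1395 to 1823 CPM with vehicle and 1750 and 2443 CPM with UMBO. Hmox1, heme oxygenase 1, was singled out after its values were seen. It was at 4.49, 10.5 and 5.17 CPM with vehicle, at 10.5 CPM in UMBO replicate 1 and at 109 CPM in UMBO replicate 2. Cd163 was lowest in UMBO replicate 2, but that library stood apart from the others, and a link between the 2 genes was not tested. Among 6 genes of hyaluronan synthesis, breakdown and binding, the ligand side of Lyve1, 2 were higher and 1 lower at an unadjusted p under 0.05, with a median log2 fold change of 0.30. The most abundant by its mean over the libraries was Cd44, another hyaluronan receptor, at 8.83 to 23.5 CPM with vehicle and at 28.4 and 72.4 CPM with UMBO. Of 5 genes of folate transport and use, the pathway of Folr2, 1 was higher at an unadjusted p under 0.05, with a median log2 fold change of 0.31. The median was 0.12 without UMBO replicate 2. By the mean over all libraries, which UMBO replicate 2 raised, the most abundant was Mthfd2, an enzyme of mitochondrial folate metabolism, at 7.76 to 17.9 CPM with vehicle and at 13.8 and 53.0 CPM with UMBO.

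Some markers of other macrophages and of monocytes also had higher levels with UMBO, with overlap between the groups for others. For 6 genes used here as general macrophage markers, the summed level was 45.1 to 147.5 CPM with vehicle and 145.3 and 536.6 CPM with UMBO. All 6 were higher, 5 at an unadjusted p under 0.05, and their median was 1.71 on the log2 scale, or 0.76 without UMBO replicate 2. Lyz2, the macrophage lysozyme, was the most abundant at 13.7 to 65.0 CPM against 60.3 and 294.2 CPM. The 6 monocyte genes summed to 29.3 to 39.6 CPM with vehicle and to 43.5 and 98.0 CPM with UMBO, with 2 at an unadjusted p under 0.05 and a median log2 fold change of 2.84, which was 0.18 without UMBO replicate 2. Vcan, the most abundant of these, was at 23.7 to 34.8 CPM with vehicle and at 33.9 and 23.9 CPM with UMBO. The sum in UMBO replicate 1 was thus mostly Vcan, which stayed within its vehicle range. In that library Ly6c2, Ccr2 and Plac8 were at 1.58, 1.90 and 2.18 CPM, below the 3.68, 3.50 and 4.35 CPM of vehicle replicate 2. Chil3 and S100a4 exceeded their vehicle range in each UMBO mouse. The 5 microglia genes used summed to 124.4 to 143.7 CPM with vehicle and to 187.3 and 148.9 CPM with UMBO, with 3 higher and 2 lower, 2 of the higher ones at an unadjusted p under 0.05, and a median of 0.28. Without UMBO replicate 2 the microglia median was 0.47, and that of the 8 genes was 0.46. By the mean over all libraries the most abundant was Tmem119, a surface protein of microglia, at 22.7 to 38.9 CPM with vehicle and at 44.6 and 60.1 CPM with UMBO. In the vehicle mean it was below P2ry12, a purine receptor of microglia named after its values were seen, which was at 31.9 to 42.8 CPM with vehicle and at 51.7 and 20.8 CPM with UMBO. What part these cells had in the values of the 8 genes was not tested.

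Platelets and lymphatic endothelium share single markers with the set. Of 7 platelet and megakaryocyte genes, 4 passed the filter on low counts and 0 had an unadjusted p under 0.05. Their sum was 3.62 to 4.02 CPM with vehicle and 4.24 and 6.35 CPM with UMBO, both above the vehicle range, as Pf4 was in UMBO replicate 2, and the most abundant was Itga2b, the platelet integrin alpha IIb, at 2.42 to 3.17 CPM against 3.23 and 4.92 CPM. Of 6 lymphatic endothelium genes, relevant to Lyve1 and Stab1, 4 passed the filter, with 2 higher, 2 lower and a median log2 fold change of -0.05. The gene Pdpn, named after its values were seen, was higher at an unadjusted p under 0.05, at 13.4 to 23.8 CPM with vehicle and at 25.2 and 52.6 CPM with UMBO (log2 fold change 1.06, adjusted p of 0.497 by edgeR). Reln, also a neuronal gene, was the most abundant at 62.3 to 93.0 CPM with vehicle and at 82.2 and 42.0 CPM with UMBO, and Mmrn1 and Ccl21a did not pass the filter and were at no more than 0.0472 and 0.0148 CPM in any library. The part of platelets in the Pf4 value was not tested.

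Part of the genes of the vessel wall and the meninges, where border macrophages live, also had higher levels with UMBO. The 6 blood endothelium genes summed to 117.7 to 166.2 CPM with vehicle and to 204.6 and 221.3 CPM with UMBO (median log2 fold change 0.53, 3 of 6 at an unadjusted p under 0.05), with Flt1, a VEGF receptor, the most abundant at 51.9 to 74.3 CPM against 74.1 and 66.6 CPM. The 7 meningeal fibroblast genes summed to 75.6 to 113.7 CPM with vehicle and to 173.7 and 162.7 CPM with UMBO. Their median log2 fold change was 0.45, with 5 of 7 higher, 3 of them at an unadjusted p under 0.05. Col1a2, a collagen I chain, was the most abundant at 26.2 to 37.6 CPM against 47.0 and 43.1 CPM. The 2 lower were Igf2, at 2.06 to 4.28 CPM against 1.61 and 0.107 CPM, and Slc22a6, at 6.42 to 10.2 CPM against 7.70 and 6.76 CPM. Of these, Igf2 lay below every vehicle library in both UMBO mice. Slc6a13 overlapped between the groups, at 8.02 to 12.6 CPM against 10.8 and 12.2 CPM. Relative to the vehicle mean, the list medians in UMBO replicates 1 and 2 were 0.56 and 0.56 on the log2 scale for blood endothelium and 0.53 and 0.40 for meningeal fibroblasts, while those of the 8 genes were 0.51 and 1.28. The 5 red blood cell genes had a median of 0.62 and 0 at an unadjusted p under 0.05, with Hbb-bs, a beta globin, at 47.5 to 106.3 CPM against 115.9 and 138.6 CPM. How much meninges or blood each dissected hemisphere held was not measured, and its part in the values of the 8 genes was not tested.

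The remaining lists had their most extreme values in UMBO replicate 2. The 6 choroid plexus genes had a median log2 fold change of -0.41, or -0.06 without that library, with Ttr, transthyretin, at 712.2 to 745.9 CPM with vehicle and at 766.2 and 455.5 CPM with UMBO. The 6 neuron genes had a median of -0.41, or -0.36 without UMBO replicate 2, and 0 at an unadjusted p under 0.05. All 6 were lower with UMBO in the fitted value. For 4 of them both UMBO libraries lay below every vehicle library, as for 11.4% of all genes. The 6 neuron genes summed to 7339, 4744 and 4497 CPM with vehicle and to 4684 and 2387 CPM with UMBO. The 8 border macrophage genes summed to 31.1, 41.1 and 43.6 CPM with vehicle and to 54.6 and 82.0 CPM with UMBO. How the make-up of each hemisphere bore on the 8 genes was not tested. The 8 proliferation genes had a median of 2.23, or 0.91 without UMBO replicate 2, with 8 of 8 at an unadjusted p under 0.05. Top2a, a topoisomerase of dividing cells, was at 9.91 to 38.1 CPM with vehicle and at 38.2 and 174.8 CPM with UMBO.

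**Figure D3:**
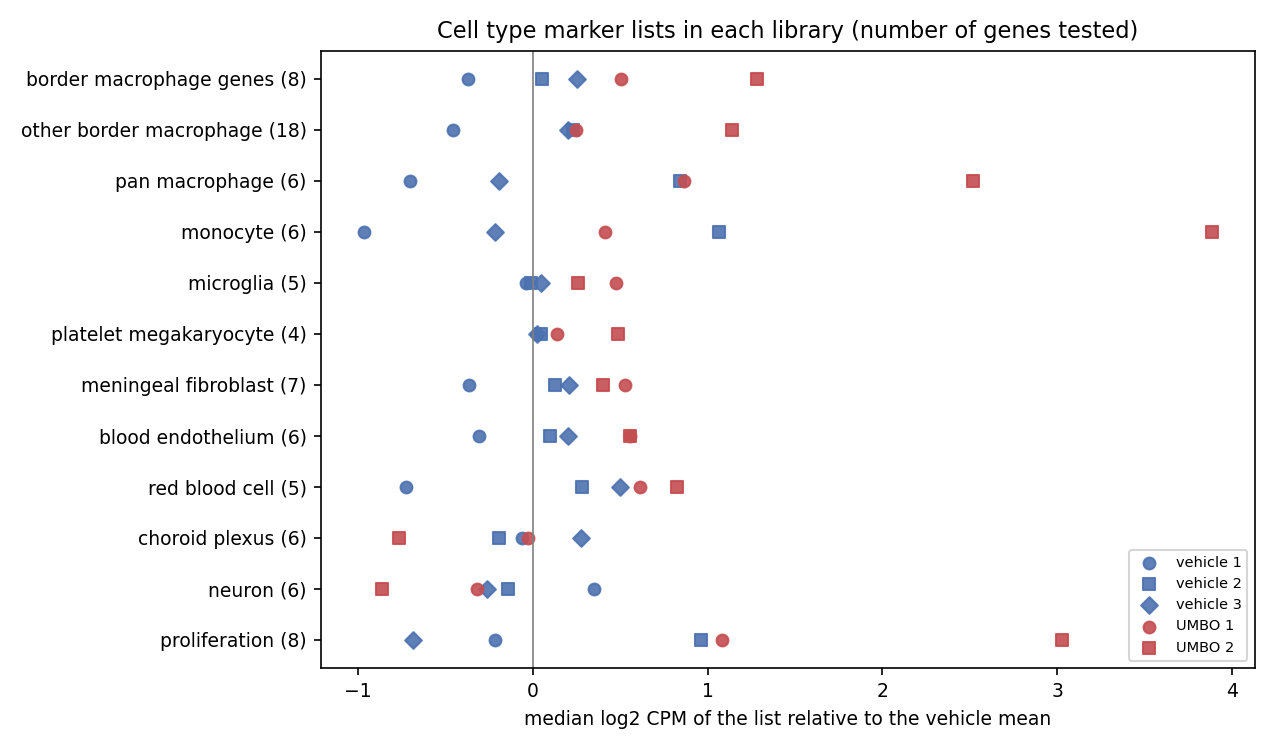
Median over each list of the log2 CPM in a library relative to the vehicle mean (x axis), for the 8 border macrophage genes and 11 lists of other markers (y axis, with the number of genes tested), in the vehicle libraries (blue) and the UMBO libraries (red; circle for replicate 1, square for replicate 2). The 8 genes lie at -0.37, 0.05 and 0.26 with vehicle and at 0.51 and 1.28 with UMBO, and the general macrophage, monocyte and proliferation lists reach higher in UMBO replicate 2, at 2.52, 3.89 and 3.03.

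Set against the sum of the 6 general macrophage genes, none of the 8 was higher in both UMBO libraries, where only 0.161% of all genes were. Each gene was written as a percent of that sum in its own library. The weight of Lyz2 in the sum differed between libraries, with 13.7 of 45.1 CPM in vehicle replicate 1 and 294.2 of 536.6 CPM in UMBO replicate 2. Mrc1 was at 13.7%, 6.95% and 12.6% with vehicle and at 6.70% and 2.33% with UMBO, and Pf4 at 1.16%, 0.674% and 0.814% with vehicle and at 0.564% and 0.524% with UMBO. For these 2 genes both UMBO libraries lay below every vehicle library, which held for 42.2% of all genes tested, and for 0 of 8 both lay above, which held for 0.161% of all genes. Stab1 was at 40.4%, 14.8% and 32.4% with vehicle and at 22.4% and 9.44% with UMBO, with overlap between the groups. The low percent in vehicle replicate 2 went with the highest vehicle sum, 147.5 CPM. Stab1 itself was there at 21.8 CPM, between the other vehicle libraries. Against the sum of the monocyte genes, 1 of 8 lay above in both UMBO libraries, where 0.882% of all genes did: Cbr2, at 1.96%, 3.03% and 2.15% with vehicle and at 3.15% and 3.04% with UMBO. That rested on 3.03% in vehicle replicate 2 against 3.04% in UMBO replicate 2, from 76 and 195 counts of Cbr2. Vcan alone made up most of this sum except in UMBO replicate 2. It held 26.7 of 29.3 CPM in vehicle replicate 1 and 23.9 of 98.0 CPM in UMBO replicate 2. None of the 8 lay below every vehicle library on that scale, where 46.4% of all genes did.

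**Figure D4:**
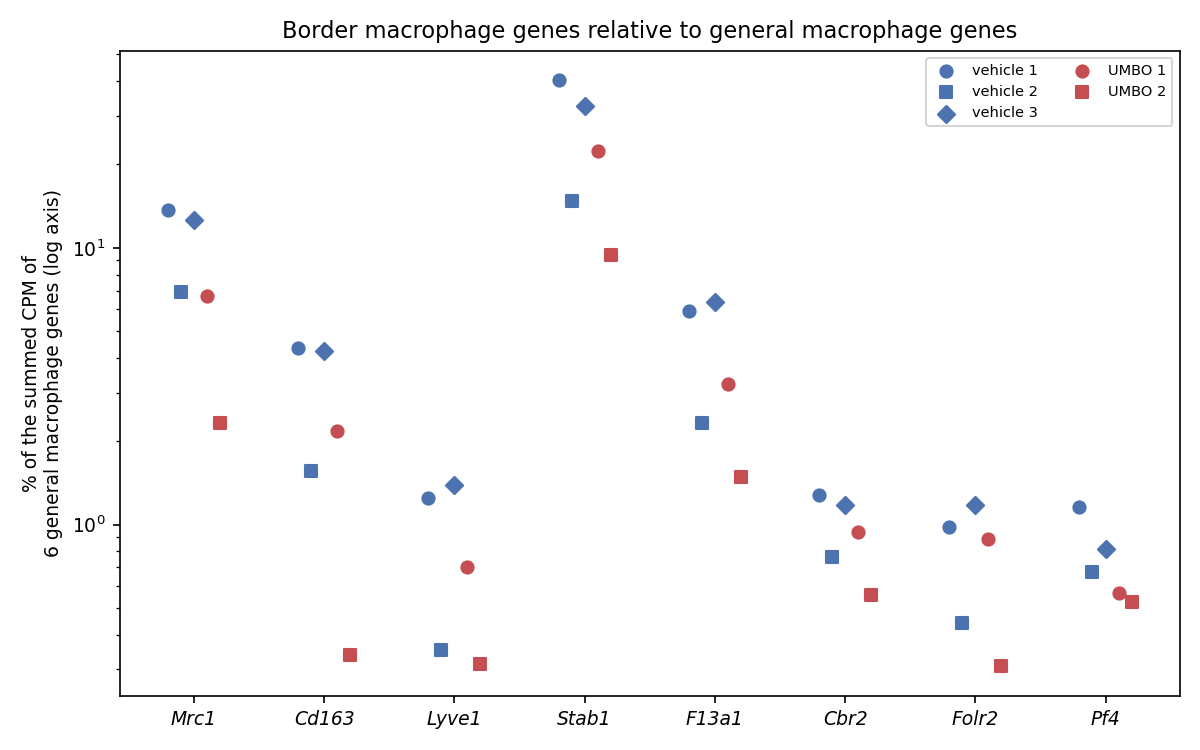
Each of the 8 genes as a percent of the summed CPM of 6 general macrophage genes in the same library (y axis, log scale), in the vehicle libraries (blue) and the UMBO libraries (red). UMBO replicate 2 is the lowest library for all 8 genes, from 0.307% for Folr2 to 9.44% for Stab1, and vehicle replicate 2 is the lowest vehicle library for all 8. The sum used as the divisor is highest in UMBO replicate 2, at 536.6 CPM, and among vehicle libraries in vehicle replicate 2, at 147.5 CPM. How many of all genes are lowest in these libraries on this scale was not computed.

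The 5 genes whose profile over the 5 libraries lay nearest to the mean profile of the 8 were Gm20597, Gm49152, Unc45b, Vwf and Fgl1, with root mean square differences of 0.0145 to 0.0463 on the log2 scale. Of these, Vwf, the von Willebrand factor of endothelium and platelets, was the most abundant, at 19.9, 28.5 and 29.3 CPM with vehicle and at 37.5 and 53.8 CPM with UMBO. Unc45b, a myosin chaperone, was at 1.27 to 1.93 CPM with vehicle and at 2.53 and 3.60 CPM with UMBO. Of the 8 genes themselves, Stab1 lay nearest to the mean profile at 0.0985 and F13a1 next at 0.109, while Pf4 at 0.472 and Cd163 at 0.614 lay farthest. The likeness is over 5 libraries and was not tested.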

How the data were processed

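Reads were aligned by the authors to GRCm38 (STAR 2.7.2a), and the deposited tables, 1 per library, hold raw read counts per Ensembl gene without normalization. The annotation release and the strand setting are not given in the sources used here. The labels describe 5 different mice, and the study's methods describe a larger number; no other library was analysed here. Symbols, positions and exon lengths were taken from GENCODE M21 and promoters from RefSeq. Where a symbol (Ccl21a) had more than 1 identifier, the first was used.

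Counts of all libraries were fitted together with edgeR 4.0.16 in R 4.3.3 (filterByExpr, TMM, quasi-likelihood test), and p-values of the 23592 genes tested were adjusted by Benjamini-Hochberg with a threshold of 0.05. CPM values are TMM-normalized, standard errors were derived from the fold change and the F statistic, and log2 CPM used a prior count of 2. Exact binomial intervals cover counting error only. Depth was 59736771 to 86164159 counts per library. DESeq2 1.42.0, other normalizations and filters, the replicate number as a block and leaving out each library were alternatives. The scripts were tested on simulated data.

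The 8 genes and the lists of other genes were chosen with earlier results of these data known. Named were every one of the 8, the extremes and the 3 smallest p of the other border macrophage genes, the 5 nearest profiles, the most abundant gene of each other list, and genes overlapping the 8. Genes named outside this rule are Hmox1, the markers Mmrn1 and Ccl21a, and Siglec1, Dab2, Pdpn and P2ry12, chosen after their values were seen. The monocyte genes Ly6c2, Ccr2, Plac8, Chil3 and S100a4 and the meningeal fibroblast genes Igf2, Slc22a6 and Slc6a13 were also named after their values were seen. Of the lists, 1 microglia gene is not reported here and was left out of the list after its values were seen; results scaled to the microglia genes were left out with it.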

Additional observations from a re-analysis of the deposited data

How the results depend on the processing

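With 2 UMBO libraries, the spread between mice limits every value, and depth adds to it for Lyve1, Folr2, Cbr2 and Pf4, which had 33 to 195 counts in each library. All 8 log2 fold changes kept their sign under every alternative except that of Cd163, which turned to -0.11 when vehicle replicate 1 was left out and to -0.46 when UMBO replicate 1 was; the cause was not tested. The number of the 8 genes with an unadjusted p under 0.05 was 3 by edgeR and 5 by the DESeq2 Wald test (4.87% of all genes were higher at that threshold by DESeq2), where the lowest adjusted p was 0.225, for Stab1, and 40 of all 40434 genes (0.0989%) had an adjusted p under 0.05.

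Replicate numbers are shared by the groups, but nothing in the labels says that a number marks a common litter or day. Same-numbered libraries correlated at 0.453 and 0.760 in their deviations from the group means, over 2 pairs. With 2 UMBO libraries, their deviations from the group mean are mirror images of each other. The 2 values are therefore not independent and cannot show whether the numbers pair the mice. With the replicate number as a block, 6 of the 8 genes had an unadjusted and 4 an adjusted p under 0.05, while 6134 of all 23592 genes had an unadjusted and 2337 an adjusted p under 0.05. The 4 were Stab1 (log2 fold change 1.02, adjusted p 0.00450), F13a1 (1.01, 0.0379), Cbr2 (1.33, 0.0285) and Folr2 (1.44, 0.0273), all by edgeR.

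Leaving out 1 library at a time gave 1 to 6 genes at an unadjusted p under 0.05 and 0 to 3 at an adjusted p under 0.05. Over all genes the number at an unadjusted p under 0.05 ran from 296 of 23137 without vehicle replicate 1 to 10165 of 24814 without UMBO replicate 1. The 3 arose without UMBO replicate 1, from Stab1 (1.23, adjusted p 0.0390), Cbr2 (1.78, 0.0421) and Pf4 (1.97, 0.0393) by edgeR, with the lone UMBO library assumed to vary like the vehicle group. Log2 fold changes ranged over 0.19 to 0.56 for Mrc1, -0.46 to 0.37 for Cd163, 0.55 to 1.31 for Lyve1, 0.62 to 1.23 for Stab1, 0.38 to 1.13 for F13a1, 0.69 to 1.78 for Cbr2, 0.96 to 1.42 for Folr2 and 0.23 to 1.97 for Pf4. The median of the 8 ranged from 0.46 to 1.23 and that of the other border macrophage genes from 0.23 to 0.90, both lowest without UMBO replicate 2. Both UMBO libraries, or the remaining one, lay above every vehicle library for 5 to 7 genes; the 7 arose without vehicle replicate 2 and without UMBO replicate 1, where 7128 of 23120 and 10544 of 24814 genes of all did so. With library size in place of TMM the median of all genes was 0.13 rather than 0.01, and that of the 8 was 1.09.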
